A study of Mus musculus with 10 samples.

Results

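The calcium/calmodulin-dependent protein kinase (CaMK) genes described here are the 4 subunit genes of CaMKII (Camk2a, Camk2b, Camk2d and Camk2g), the monomeric kinase genes Camk1, Camk1d, Camk1g and Camk4, and the upstream kinase genes Camkk1 and Camkk2. They were chosen by name, and all 10 were present among the 29883 genes of the count table. The series compared the nucleus accumbens (NAc), the ventral part of the striatum, between the inbred mouse strains C57BL/6J (B6) and DBA/2J (D2), with contrasting responses to ethanol. All animals were ethanol-naive, untreated males, sacrificed at 9 weeks of age after group housing, with 5 mice per strain and 1 poly-A RNA library per mouse. The labels give each group the genotype of its inbred strain and name no other allele, and the reads of both strains were aligned to the genome of the B6 strain.

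Calcium that enters a neuron binds calmodulin, and the complex switches these kinases on. CaMKII is a holoenzyme of many subunits that accumulates at excitatory synapses and is required for long-term potentiation. CaMKK1 and CaMKK2 phosphorylate CaMK1 and CaMK4, which act on dendrite growth and, in the nucleus, on transcription through CREB, and CaMKK2 also phosphorylates AMP-activated kinase.

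Camk1, Camk2d and Camk2g were higher in D2 than in B6, by 1.45-fold, 1.25-fold and 1.10-fold, and no member was lower. The test was the quasi-likelihood F test of edgeR, and a gene is called here when its p, adjusted over all genes by the Benjamini-Hochberg method, is under 0.05. The 3 called members of 10 stand beside 8.50% of all genes called higher in D2, and the 0 called lower stand beside 9.83%. At an unadjusted p under 0.05, 3 members were higher and 1, Camkk2, was lower, and the share of all genes at that threshold is not given here. DESeq2 also called 3 members higher and 0 lower, beside 2943 higher and 3265 lower of the 28138 genes with an adjusted p. The values of the strains did not overlap for the same 3 members, against 16.0% of all genes. The median log2 fold change (D2 against B6, as throughout) was -0.021 over the 10 members and 0.0036 over all genes, and 5 of the 10 members had a positive value.

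The libraries held 96977262 to 116776714 counts, and the members 2637 to 223726 counts in a single library. Levels are given as CPM, counts scaled to a library of 1000000 counts after TMM normalization. Markers of striatal projection neurons summed to between 4706 and 6011 CPM in B6 and between 3902 and 4741 CPM in D2, and all 9 were detected. B6 replicates 3 and 5 stood apart. Their 8 markers of cortical projection neurons summed to 953 and 966 CPM, against 89.4 to 178 CPM in the other 3 B6 mice and 232 to 599 CPM in D2, and none of the 8 was at 0. They were also the most alike libraries within a strain, with a mean chi-square of 4.89 per gene against 17.5 to 119 for the other pairs, where sampling noise alone gives about 1, and were counted as 2 mice. Values are therefore also given without these mice and with the marker level as a covariate. Without them the cortex markers moved with the strain, as 7 of the 8 were higher in D2 (Slc17a7 by a log2 fold change of 2.07). With all mice 0 were higher (by edgeR, by DESeq2 and at an unadjusted p under 0.05). The covariate is the mean log2 level of these same 8 markers. The covariate fit, which called 2 of them higher, therefore cannot show how they differ between the strains. Across all genes the fits without these mice and with the covariate called 19.2% and 26.0% in either direction. In whole tissue, fewer cells of a type and less RNA per cell cannot be told apart.

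**Figure D1:**
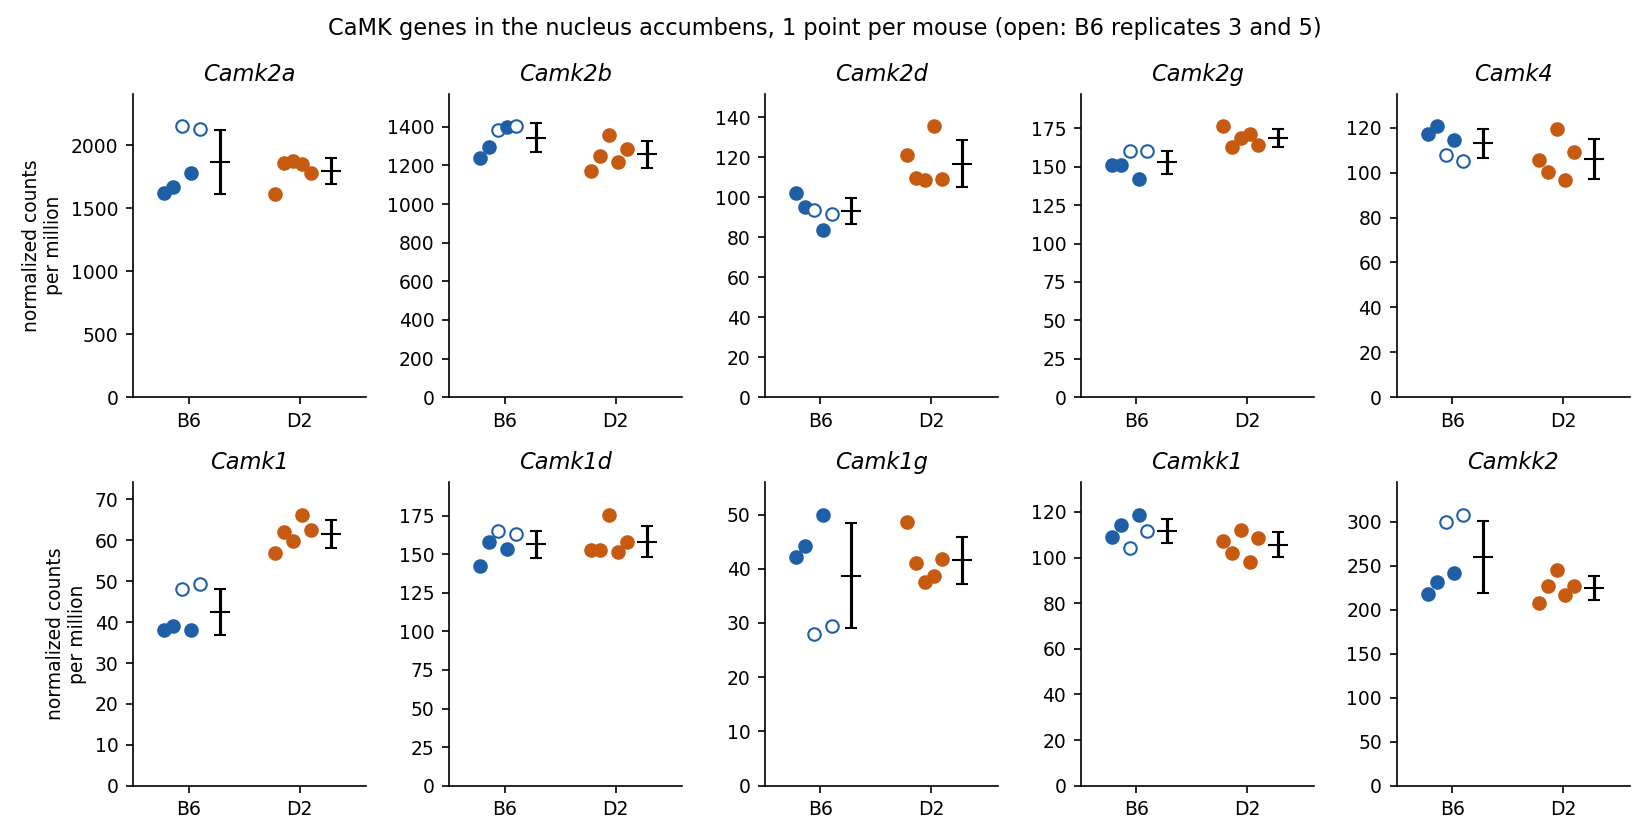
TMM-normalized CPM of the 10 CaMK genes (vertical axes, from 0) in each B6 and D2 mouse, with 1 point per mouse and the mean with its SD beside the points. Camk1, Camk2d and Camk2g show no overlap between strains, while open points, B6 replicates 3 and 5, lie at the top of B6 for Camk2a and Camkk2 and at the bottom for Camk1g.

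Camk1 encodes the alpha form of CaMK1, a monomeric kinase of the cytoplasm that is activated by CaMKK. The gene lies on the minus strand at chr6:113311071-113321106 (GRCm39). Its level was 38.1, 38.97, 48.0, 38.1 and 49.4 CPM in B6 replicates 1 to 5 and 56.9, 62.0, 59.8, 66.3 and 62.6 CPM in D2 replicates 1 to 5. No B6 mouse reached the lowest D2 value, and the B6 mice fell into 3 low values and the 2 higher values of replicates 3 and 5. The mean was 42.5 ± 5.68 CPM in B6 and 61.5 ± 3.48 CPM in D2 (SD, n = 5 each), and the log2 fold change was 0.53 (standard error, SE, 0.079, edgeR adjusted p = 0.00033). It was 0.68 without B6 replicates 3 and 5 (edgeR adjusted p = 6.4e-07), a subset in which the cortex markers were higher in D2 as well. With the cortex marker level as a covariate it was 0.49 (edgeR adjusted p = 3.3e-07).

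The exons of Camk1 share 984 bases, 13.1% of their merged length, with Ogg1, a DNA glycosylase gene on the opposite strand. Ogg1 was lower in D2, at 5.64 ± 0.354 CPM in B6 and 4.11 ± 0.172 CPM in D2 (SD, n = 5), with a log2 fold change of -0.46 (edgeR adjusted p = 0.00024). The library kit keeps the strand, but whether the counting used it is not stated, and the part of shared reads in either value was not tested.

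Among 15388 genes averaging 100 counts or more, the gene whose pattern over the 10 mice was most like that of Camk1 was Psen2, the presenilin 2 gene, with a root mean square distance of 0.079 between log2 levels centred on each gene's mean. Inpp4a, which encodes an inositol polyphosphate phosphatase, followed at 0.084, then Gm48295 at 0.085, Apol8 at 0.096 and Zfp661 at 0.099. The mean of Psen2 was 13.96 CPM in B6 and 19.1 CPM in D2 and that of Inpp4a 165 and 228 CPM. These genes were picked for a pattern like that of Camk1, so the choice fixes their strain difference and no test of it is given.

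The promoter windows of the pair with the largest differences, Camk1 and Camk2d, are shown because CREB, a target of this pathway, binds the letters TGACGTCA or the shorter TGACG. The 250 bases before the transcription start were taken from RefSeq, whose table names the build GRCm38.p6, so the positions differ from those of the genes above. The window of Camk1 is chr6:113343923-113344172 on the minus strand, and that of Camk2d is chr3:126596701-126596950 on the plus strand. Both are written 5′ to 3′ in gene direction, and capitals mark TGACG or its complement CGTCA.
Camk1: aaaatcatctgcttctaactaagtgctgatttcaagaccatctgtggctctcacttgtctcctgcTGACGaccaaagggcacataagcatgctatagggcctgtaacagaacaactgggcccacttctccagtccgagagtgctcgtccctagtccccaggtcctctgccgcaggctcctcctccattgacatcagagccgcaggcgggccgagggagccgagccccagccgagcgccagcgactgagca
Camk2d: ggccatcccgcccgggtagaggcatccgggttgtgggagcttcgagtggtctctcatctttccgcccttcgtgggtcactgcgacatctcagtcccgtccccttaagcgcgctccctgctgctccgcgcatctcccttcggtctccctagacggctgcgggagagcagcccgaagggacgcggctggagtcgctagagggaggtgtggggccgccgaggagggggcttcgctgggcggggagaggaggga
The Camk1 window held TGACG once, beginning 185 bases before the start, and the Camk2d window held neither form. The short form, on either strand and counting those inside the long form, was found in 17.8% of the 32851 promoter windows of the table, and the long form in 1.55%. Of the 7 members whose windows were read, Camkk1 was the only other one with the short form, and none held the long form. The GC content was 58.0% for Camk1 and 68.4% for Camk2d, against a median of 52.4% over all windows. A match of letters is no measurement of binding.

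Camk2d encodes the delta subunit of CaMKII, best known from the heart, and lies on the plus strand at chr3:126389945-126639982. Its level was 102, 95.04, 93.9, 83.7 and 91.5 CPM in B6 replicates 1 to 5 and 121, 109, 109, 136 and 109 CPM in D2 replicates 1 to 5. The lowest D2 mouse, at 109 CPM, was above the highest B6 mouse, and D2 replicate 4 was the highest of all. The mean rose from 93.2 ± 6.63 CPM in B6 to 116.9 ± 11.8 CPM in D2 (SD, n = 5), a log2 fold change of 0.33 (SE 0.068, edgeR adjusted p = 0.0044). In the covariate fit it was 0.33 (edgeR adjusted p = 0.0014). The difference was nearly as large without B6 replicates 3 and 5, at 0.32 (edgeR adjusted p = 0.014). These mice lay within the range of the other 3 for this gene.

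Camk2g encodes the gamma subunit, which is widely expressed and includes forms that carry calmodulin towards the nucleus, and lies on the minus strand at chr14:20784942-20844541. Its level was 151, 151, 160.2, 142 and 160.0 CPM in B6 and 176, 163, 169, 171 and 164 CPM in D2. The strains were separated by a narrow gap, between 160.2 CPM in B6 replicate 3 and 163 CPM in D2 replicate 2. The means were 153 ± 7.48 and 169 ± 5.597 CPM (SD, n = 5), a log2 fold change of 0.14 (SE 0.040, edgeR adjusted p = 0.025). This call held in 5 of the 10 fits that left out 1 mouse, with edgeR adjusted p between 0.025 and 0.071. Its value was 0.13 in the covariate fit (edgeR adjusted p = 0.013) and 0.19 without B6 replicates 3 and 5 (edgeR adjusted p = 0.0045). In that subset the cortex markers were higher in D2 as well.

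Camk2a, which encodes the alpha subunit, the main CaMKII form of forebrain excitatory neurons, lies on the plus strand at chr18:61058473-61121224 and had the most counts of the family. Its level was 1621, 1669.9, 2152, 1776 and 2131 CPM in B6 and 1614, 1855, 1872, 1849.8 and 1782 CPM in D2. The strains overlapped, and the 2 highest values were those of B6 replicates 3 and 5, at 1.27 times the mean of the other 3 B6 mice. The means were 1869.8 ± 254 CPM in B6 and 1795 ± 107 CPM in D2 (SD, n = 5), and the log2 fold change was -0.059 (SE 0.083, edgeR adjusted p = 0.71). Its sign depended on these mice. Without them the value was 0.086 (edgeR adjusted p = 0.30), whereas with the cortex marker level as a covariate it was -0.11 and passed the threshold (edgeR adjusted p = 0.011).

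Camk2b encodes the beta subunit, which binds F-actin in dendritic spines, and lies on the minus strand at chr11:5915791-6016362. Its level was 1239, 1298, 1381, 1402 and 1404 CPM in B6 and 1170.0, 1252, 1359, 1219 and 1288 CPM in D2. Values overlapped, with 2 D2 mice below every B6 mouse. The means were 1345 ± 73.2 and 1257 ± 71.4 CPM (SD, n = 5), with a log2 fold change of -0.097 (SE 0.051, edgeR adjusted p = 0.24). The covariate fit gave -0.12 (edgeR adjusted p = 0.045), and the fit without B6 replicates 3 and 5 gave -0.064 (edgeR adjusted p = 0.48). Its exons share 1813 bases with Ykt6 on the opposite strand, whose log2 fold change was -0.042 (edgeR adjusted p = 0.59).

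The alpha and beta subunits assemble into the same holoenzyme, so the ratio of their counts was compared within each library, where no scaling enters. There were between 1.27 and 1.56 Camk2a counts per Camk2b count in B6 and between 1.377 and 1.52 in D2. The log2 ratio differed by 0.046 (exact permutation test, two-sided, p = 0.484). Without B6 replicates 3 and 5 the difference was 0.15, with D2 higher (exact permutation test, p = 0.0179), the smallest p that 3 against 5 mice allow. These mice had the highest log2 ratios in B6, 0.64 and 0.60, and were left out after seeing the data. The p therefore follows in part from that choice. In that subset the summed cortex markers were 89.4 to 178 CPM in B6 and 232 to 599 CPM in D2, without overlap, and their part in the ratio was not tested. The log2 ratio of Camk2a to Camk2n1, which encodes a CaMKII inhibitor, differed by 0.0036 (exact permutation test, two-sided, p = 0.968).

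Per kilobase of the canonical transcript, the 4 CaMKII genes together stood at 891 ± 71.4 CPM per kilobase in B6 and 853 ± 40.5 in D2 (SD, n = 5). Camk2b made up 53.6% ± 2.17 of this sum in B6 and 52.2% ± 1.13 in D2, and Camk2a 40.3% ± 2.37 and 40.6% ± 1.08. Camk2g made up 4.66% ± 0.309 in B6 and 5.36% ± 0.406 in D2. The smallest share was that of Camk2d, at 1.43% ± 0.194 in B6 and 1.87% ± 0.239 in D2. The order of the first pair depended on the length used. The canonical transcript of Camk2b, at 2823 bases, is shorter than that of Camk2a, at 5187 bases. With the merged exons of all transcripts, Camk2a stood at 194 and Camk2b at 93.5 CPM per kilobase in B6.

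The monomeric kinases other than Camk1 were not called. Camk4, a nuclear and cytoplasmic kinase that phosphorylates CREB, lies on the plus strand at chr18:33067984-33328821. It measured 117.2, 121, 107.7, 114 and 105 CPM in B6 and 106, 100.1, 119.6, 96.9 and 109 CPM in D2, with overlapping values. Its log2 fold change was -0.089 (SE 0.058, edgeR adjusted p = 0.35). It was -0.15 without B6 replicates 3 and 5 (edgeR adjusted p = 0.11), -0.14 without D2 replicate 3 (edgeR adjusted p = 0.083) and -0.058 without D2 replicate 4 (edgeR adjusted p = 0.60). The covariate fit put Camk4 at -0.065 (edgeR adjusted p = 0.38).

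Camk1d, on the minus strand at chr2:5298268-5719375, encodes the delta form of CaMK1. It measured 143, 158, 165, 153 and 163 CPM in B6 and 153, 153, 176, 152 and 158 CPM in D2. The strains overlapped, and D2 replicate 3 was above all other mice. The log2 fold change was 0.017 (SE 0.051, edgeR adjusted p = 0.87), with 0.063 without B6 replicates 3 and 5 and -0.0013 in the covariate fit, neither of them called.

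Camk1g encodes the membrane-anchored gamma form and lies on the minus strand at chr1:193028652-193052689. It measured 42.1, 44.2, 28.0, 50.002 and 29.4 CPM in B6 and 48.6, 41.1, 37.5, 38.7 and 41.7 CPM in D2. B6 replicates 3 and 5 held the 2 lowest values, at 0.632 times the mean of the other 3 B6 mice, and the other B6 mice were within or above the D2 range. The spread in B6, a coefficient of variation of 24.8%, was the widest of the 10 members in either strain. The log2 fold change was 0.10 (SE 0.14, edgeR adjusted p = 0.72). It turned to -0.13 without these mice (edgeR adjusted p = 0.31) and reached 0.23 in the covariate fit (edgeR adjusted p = 0.027).

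Of the upstream kinases, Camkk2 is the form that also activates AMP-activated kinase, and it lies on the minus strand at chr5:122869233-122917739. It measured 218, 231, 299, 242 and 308 CPM in B6 and 208, 227, 245, 217 and 227 CPM in D2. B6 replicates 3 and 5 were 1.32 times the mean of the other 3 B6 mice and above every D2 mouse, while those 3 overlapped D2. The means were 259.6 ± 41.2 and 225 ± 13.9 CPM (SD, n = 5), with a log2 fold change of -0.21 (SE 0.092, edgeR adjusted p = 0.15). Without these mice it was -0.037 (edgeR adjusted p = 0.71), and in the covariate fit -0.26 (edgeR adjusted p = 9.7e-05). Leaving out B6 replicate 1 alone gave -0.27 (edgeR adjusted p = 0.049).

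Camkk1, the other upstream kinase, lies on the plus strand at chr11:72909421-72933202. It measured 109, 114, 104, 119 and 112 CPM in B6 and 107, 102, 112, 98.1 and 109 CPM in D2, and 2 D2 mice were below every B6 mouse. The log2 fold change was -0.080 (SE 0.045, edgeR adjusted p = 0.27). Without B6 replicates 3 and 5 it was -0.11 (edgeR adjusted p = 0.13), and in the covariate fit -0.068 (edgeR adjusted p = 0.27). Its exons share 287 bases with the opposite-strand transcript 4732414G09Rik, which rose from 0.580 to 1.16 CPM (edgeR adjusted p = 2.3e-05).

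**Figure D2:**
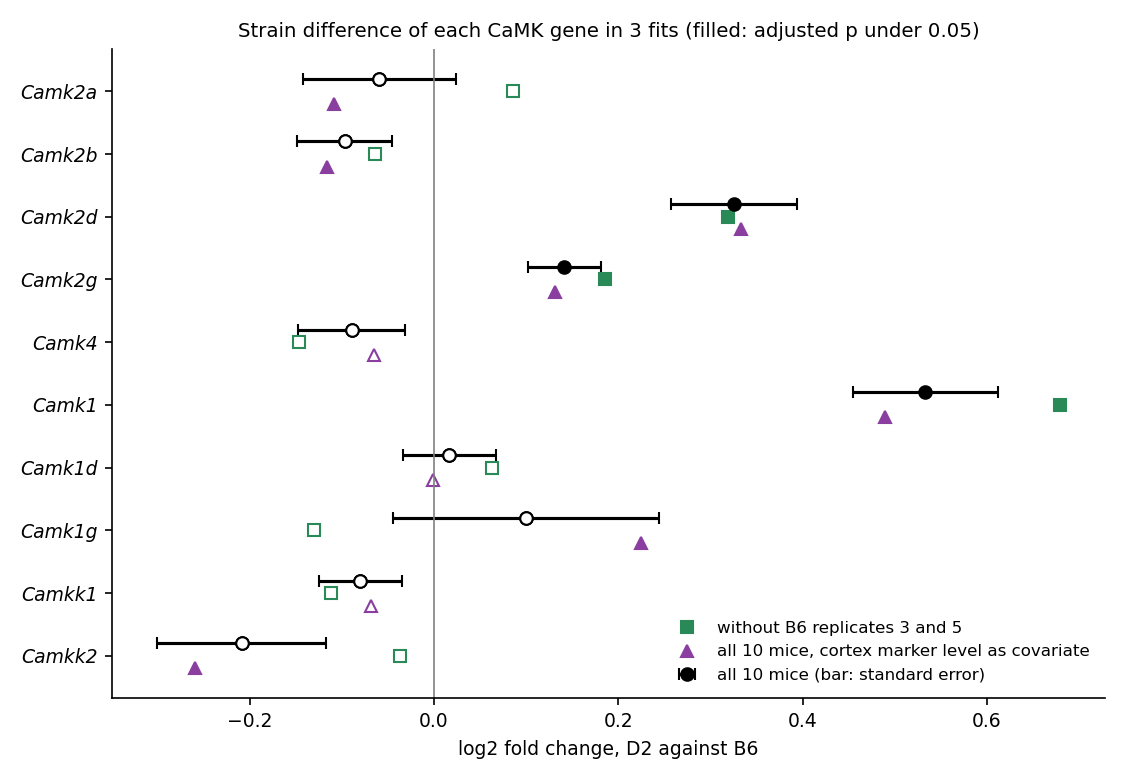
Log2 fold change of each CaMK gene, D2 against B6 (horizontal axis), with all 10 mice (circles, bars are the SE), without B6 replicates 3 and 5 (squares) and with the cortex marker level as a covariate (triangles). Filled symbols passed an adjusted p of 0.05. Camk1, Camk2d and Camk2g stay right of 0 and filled in the 3 fits, and Camk2a, Camk1g and Camk1d change side.

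**Figure D3:**
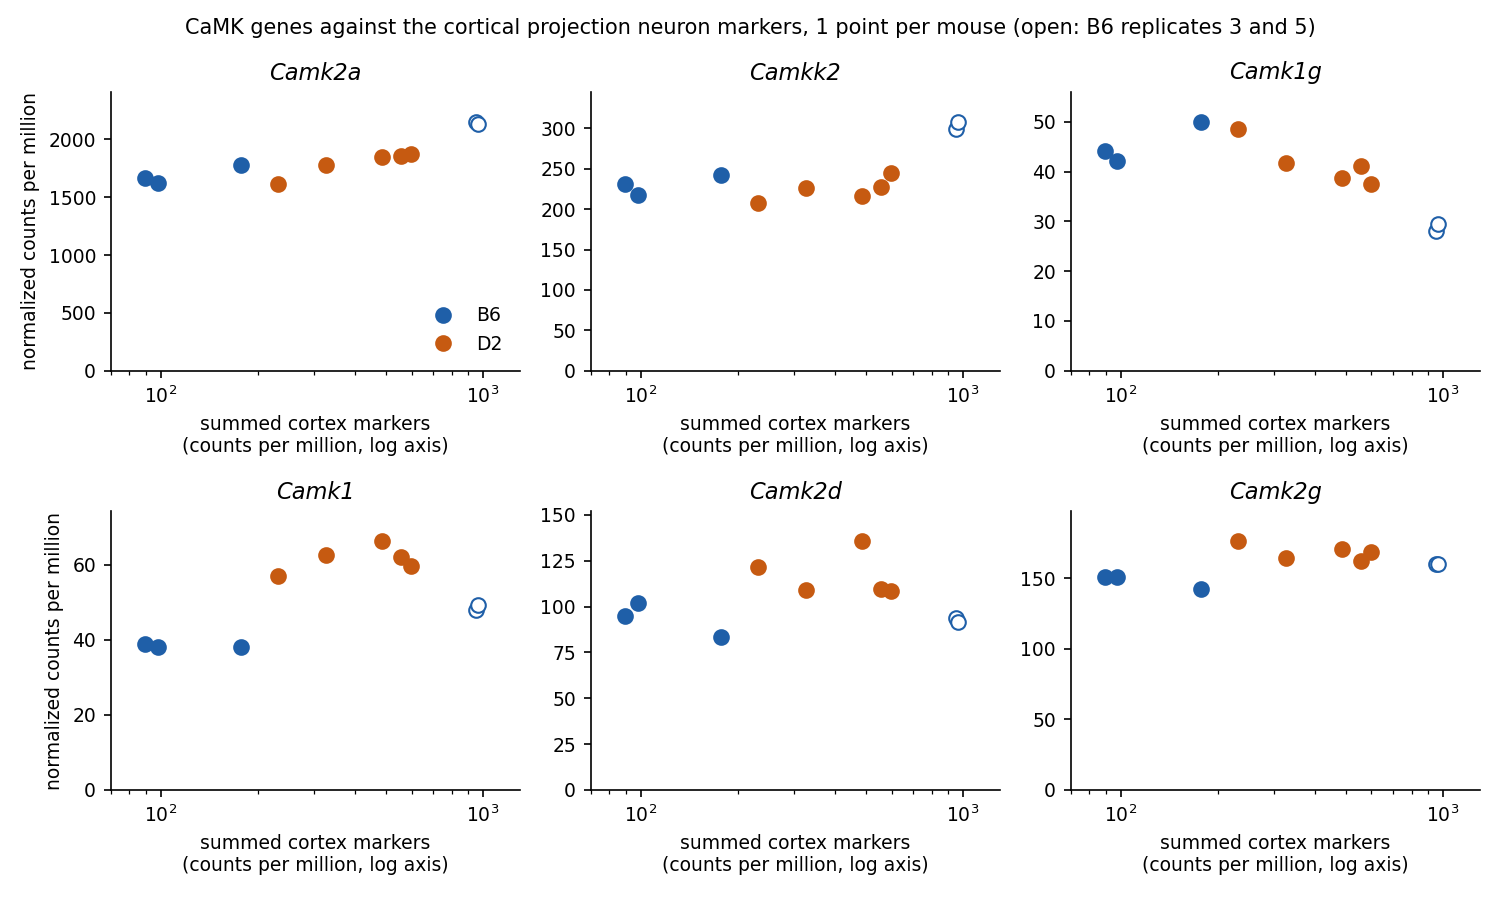
TMM-normalized CPM of 6 CaMK genes (vertical axes, from 0) against the summed level of 8 cortical projection neuron markers (horizontal axes, log scale), with 1 point per mouse. B6 replicates 3 and 5 (open) are at the right of each panel. They are highest for Camk2a and Camkk2 and lowest for Camk1g, and for Camk1 they lie between the other B6 mice and D2.

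Levels can be compared between genes only per length. Per kilobase of the canonical transcript, Camk2b (476 ± 25.9 CPM per kilobase in B6) and Camk2a (360 ± 49.0) stood far above Camkk2 (50.4 ± 7.995), Camk2g (41.4 ± 2.02), Camk4 (38.3 ± 2.22), Camkk1 (28.8 ± 1.41), Camk1 (25.4 ± 3.40), Camk1d (22.3 ± 1.28), Camk1g (15.3 ± 3.81) and Camk2d (12.7 ± 0.902), each as mean ± SD of 5 mice. The values of the mice overlapped between these neighbours for Camkk2 and Camk2g, Camk2g and Camk4, Camkk1 and Camk1, Camk1 and Camk1d, and Camk1g and Camk2d. In D2, Camk1 (36.8 ± 2.08 CPM per kilobase) moved from the seventh to the fifth place, next to Camk4 (36.0 ± 2.99), with which it overlapped. The order of the other members depended on length too. With merged exons Camk1 was ninth in B6 and eighth in D2, whereas Camk2d remained the lowest in both strains by either length.

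The genes around the cascade were given by 7 lists, and Hdac4 was the only listed gene besides the members that was called higher in D2. Pcp4, which encodes a small protein that binds calmodulin and changes its calcium binding, was lower, and so was the related gene Pcp4l1. Of 7 genes listed for calcineurin, the calmodulin-dependent phosphatase that opposes these kinases, and for its Rcan regulators, 3 were lower. Among the anchors and substrates of CaMKII at the synapse, 5 of 11 were lower, among them Shank3 and Grin2b. Beside the counts of each list, 9.83% of all genes were called lower and 8.50% higher. Of all 29883 genes, the covariate fit called 3899 higher and 3878 lower. The fit without B6 replicates 3 and 5 called 2893 higher and 2852 lower.

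Calm2 and Calm3 encode calmodulin. Their means were 1107 ± 60.3 and 952 ± 107 CPM in B6 and 1033 ± 32.3 and 912 ± 21.7 CPM in D2 (SD, n = 5). Neither was called, with log2 fold changes of -0.099 and -0.063 and edgeR adjusted p of 0.15 and 0.60. In the covariate fit Calm2 was lower at -0.12 (edgeR adjusted p = 0.013) and Calm3 was at -0.097 (edgeR adjusted p = 0.054), while without B6 replicates 3 and 5 Calm3 was at 0.057 (edgeR adjusted p = 0.34). Of the 7 genes in the list of calmodulin and its buffers, 2 were lower and 0 higher, and 5 were lower in the covariate fit. Pcp4 measured 44.7 ± 6.50 CPM in B6 and 30.4 ± 1.80 in D2, without overlap, a log2 fold change of -0.55 (edgeR adjusted p = 0.00061). Pcp4l1 measured 418 ± 25.4 and 309 ± 21.8 CPM, without overlap, a log2 fold change of -0.44 (edgeR adjusted p = 8.0e-05). The same 2 genes were lower without B6 replicates 3 and 5, at -0.42 and -0.48.

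Of the 8 genes for CaMK inhibitors and phosphatases, edgeR and DESeq2 called 0 in either direction, and 0 were higher and 1 was lower at an unadjusted p under 0.05. Camk2n1 and Camk2n2 encode small proteins that inhibit CaMKII. Camk2n1 measured 775 ± 58.6 CPM in B6 and 747 ± 79.7 in D2, with a log2 fold change of -0.051 (edgeR adjusted p = 0.72). Camk2n2 measured 46.2 ± 8.67 and 49.3 ± 2.06 CPM, with a log2 fold change of 0.095 (edgeR adjusted p = 0.615). Without B6 replicates 3 and 5, Camk2n2 was higher in D2 at 0.29 (edgeR adjusted p = 0.0030), and so was Ppm1e, a CaMK phosphatase named here after its value was seen, at 0.56. In that subset the cortex markers were higher in D2 as well. The covariate fit gave 0.054 for Camk2n2 (edgeR adjusted p = 0.64) and -0.025 for Ppm1e (edgeR adjusted p = 0.85), and called 0 of the 8 higher and 1 lower, Ppp1ca, also named afterwards, at -0.15.

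Of the 7 genes listed for calcineurin and its Rcan regulators, 3 were lower and 0 higher, with a list median of -0.010. Ppp3ca, the main catalytic subunit of brain, fell from 1381 ± 96.0 CPM in B6 to 1178 ± 68.8 in D2 (SD, n = 5), a log2 fold change of -0.23 (edgeR adjusted p = 0.012). Ppp3r1, the regulatory subunit, had a log2 fold change of -0.21 and Rcan2, an inhibitor of calcineurin, one of -0.23 (edgeR adjusted p of 0.012 and 0.0072). All 3 were also lower without B6 replicates 3 and 5 and in the covariate fit. The covariate fit also called 2 higher, Rcan1 at 0.14 (edgeR adjusted p = 0.020) and Rcan3 at 0.15 (edgeR adjusted p = 0.0046), both named after their values were seen.

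Of the 11 anchors and substrates at the synapse, 5 were lower and 0 higher, with a list median of -0.066. Shank3, a postsynaptic scaffold gene, fell from 378 ± 20.8 CPM in B6 to 305 ± 9.99 in D2 (SD, n = 5), without overlap, a log2 fold change of -0.31 (edgeR adjusted p = 0.00020). Grin2b, the NMDA receptor subunit that holds CaMKII at the synapse, had a log2 fold change of -0.22, Actn2 (an actinin that binds CaMKII) one of -0.21, and Dlg4 (the scaffold PSD-95) one of -0.17, with edgeR adjusted p of 0.021, 0.038 and 0.0059. The fifth, Gria1, an AMPA receptor subunit phosphorylated by CaMKII, is outside the rule for named genes and was named after its value of -0.15 was seen. Without B6 replicates 3 and 5, Shank3, Dlg4 and Gria1 were lower, whereas Grin2b was at -0.16 (edgeR adjusted p = 0.079) and Actn2 at -0.17 (edgeR adjusted p = 0.12). Syn1, the synapsin 1 gene, likewise named afterwards, was higher in that subset at 0.23, where the cortex markers were higher too, and was at -0.052 in the covariate fit (edgeR adjusted p = 0.36). The covariate fit called 5 of the 11 lower and 0 higher.

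Of 12 nuclear targets of CaMK4 and CaMK1, 1 was higher and 0 lower, with a list median of 0.0091. Hdac4, a class II histone deacetylase whose export from the nucleus follows CaMK phosphorylation, rose from 41.1 ± 1.58 CPM in B6 to 53.2 ± 2.27 in D2 (SD, n = 5), without overlap, a log2 fold change of 0.37 (edgeR adjusted p = 1.7e-05). It was 0.39 without B6 replicates 3 and 5, and Mef2c, named afterwards, was also higher at 0.31, along with the cortex markers. In the covariate fit Mef2c was at -0.010 (edgeR adjusted p = 0.90), and Hdac4 was the 1 gene called, at 0.37. Of 8 genes listed around the other targets of CaMKK, 1 was lower and 0 higher, with a list median of -0.0078. The list includes both catalytic and partner subunits of AMP-activated kinase, and not each of them is itself a target. The gene called lower was Prkag1, a regulatory subunit of that kinase, at -0.11 (edgeR adjusted p = 0.026). Without these mice Prkag1 was at -0.10 (edgeR adjusted p = 0.069) and the catalytic subunit gene Prkaa2, named afterwards, was higher at 0.39, again along with the cortex markers. Prkaa2 was at 0.12 in the covariate fit (edgeR adjusted p = 0.089), which called 3 of the 8 lower: Prkag1 at -0.11 and, named afterwards, Prkab2 at -0.11 and Prkag2 at -0.099.

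Of 10 genes in the list of other calmodulin-regulated kinases, 2 were lower and 0 higher, with a list median of -0.038. Not each of them is itself an active kinase or regulated by calmodulin. Camkv, a kinase-like protein of synapses, fell from 779 ± 33.7 CPM in B6 to 695 ± 32.1 in D2 (SD, n = 5), without overlap, a log2 fold change of -0.17 (edgeR adjusted p = 0.018). Eef2k, which slows translation elongation, had a log2 fold change of -0.14 (edgeR adjusted p = 0.024). Without B6 replicates 3 and 5, Camkv was lower, Eef2k was at -0.095 (edgeR adjusted p = 0.097), and Mylk, the myosin light chain kinase gene named afterwards, was higher at 0.56, as were the cortex markers. In the covariate fit Mylk was at 0.18 (edgeR adjusted p = 0.11), and 1 gene was higher and 3 were lower. These were Pnck at 0.23, and Camkv, Eef2k and Dclk1 at -0.17, -0.15 and -0.11, with Pnck and Dclk1 named afterwards.

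**Figure D4:**
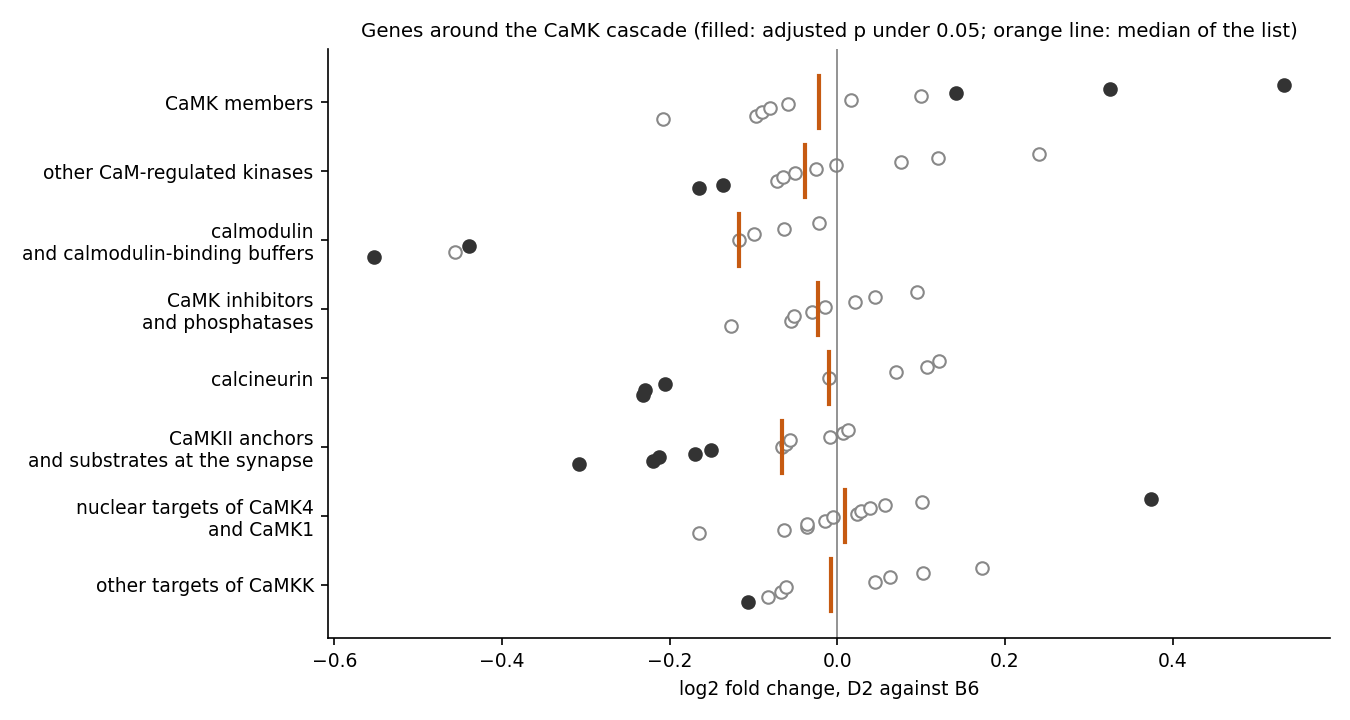
Log2 fold change, D2 against B6 (horizontal axis), of the CaMK genes and of 7 lists around them, with 1 point per gene, filled where the adjusted p was under 0.05, and a vertical line at the median of each list. Of the CaMK genes 3 are filled at the right. At the left, 5 of the synaptic anchors and 3 of the calcineurin list, which includes its Rcan regulators, are filled.

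Some markers of other cell types also differed between the strains. Of all genes, 9.83% were called lower in D2 and 8.50% higher. Of 9 striatal projection neuron markers 6 were lower in D2 and 0 higher, of 6 oligodendrocyte markers 4 were lower, and of 5 blood markers 3 were lower. Without B6 replicates 3 and 5 these counts of lower markers were 7, 0 and 2, beside 2852 lower of all 29883 genes. In the covariate fit they were 7, 6 and 3, beside 3878 lower. Neither fit called any marker of these 3 lists higher. Of 6 astrocyte markers 1 was higher and 2 lower, of 6 microglia markers 1 was higher, and of 5 choroid plexus and ependyma markers 1 was lower. The last was Folr1, near the floor at 0.051 CPM in B6 and 0.0017 CPM in D2. The blood markers called were Hba-a2, Hbb-bt and Alas2, with log2 fold changes of -5.47, -1.27 and -0.59. Hba-a1 and Hbb-bs, at 0.085 and -0.36, were not called. Of 5 endothelium markers edgeR called 0, with 2 lower at an unadjusted p under 0.05 and 2 lower by DESeq2. For microglia, DESeq2 called 2 higher and 1 lower, and 2 were higher and 3 lower at an unadjusted p under 0.05. Oligodendrocyte markers summed to 6171 and 6202 CPM in B6 replicates 3 and 5, against 4293 to 5149 CPM in the other B6 mice and 3242 to 4734 CPM in D2. No marker of these lists was at 0 in every library. The part of these cells in the strain differences of the CaMK genes and of their partners was not tested.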

How the data were processed

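NAc RNA was sequenced in 5 B6 and 5 D2 male mice as stranded poly-A libraries with paired reads. The authors trimmed reads with fastp 0.22.0, aligned them with STAR 2.7.10b to the GRCm39 genome of the B6 strain, used SAMtools 1.6 for sorting and featureCounts for counting. The deposited table holds raw counts by gene, and every gene in the table had a median count of at least 0.5 over the 10 libraries. Whether counting used the strand, and how reads matching several genes were treated, is not given in the sources used here. Columns of summary statistics by the authors were not used. Depth was 96977262 to 116776714 counts per library, and p-values measure the spread between mice.

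Counts were fitted in edgeR 4.0.16 under R 4.3.3 (TMM, quasi-likelihood F test, two-sided, Benjamini-Hochberg adjustment over 29883 genes, threshold 0.05) with strain as the factor, and the SE is the absolute log2 fold change over the square root of F. CPM use TMM library sizes. Ratios within libraries were compared by exact permutation over the 252 assignments of 5 and 5 mice (smallest p 0.0079). Of the gene IDs, 29519 were in the GENCODE annotation of GRCm39, which gave coordinates, lengths and overlapping exons. Promoters came from RefSeq (GRCm38.p6), and the windows of 7 of the 10 members were read. The scripts were tested on simulated data.

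The members and lists were chosen with earlier results of these data known. All members were named, as were up to 4 called genes per list by size of change, Camk2n1, Camk2n2, Calm2 and Calm3, and the 5 genes most like Camk1. Results for 1 further gene that the rule covers were left out. The alternatives were DESeq2 1.42.0, its size factors, library totals, upper quartile scaling, 2 count filters, mitochondrial genes left out, a replicate block, the cortex marker level as a covariate, an adjusted p of 0.01, an exact test and each mouse left out. The fit without B6 replicates 3 and 5 was added after seeing the data.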

Additional observations from a re-analysis of the deposited data

Results flagged for a closer look

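For Camk1d in D2, the highest mouse, D2 replicate 3 at 176 CPM, lay far from the other 4, with a gap to the next of 0.752 of the whole range of the strain, above the 95% limit of Dixon's test of 0.71 for 5 samples. Chance flags about 1 in 20 groups, and the 10 members were examined in both strains.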

How the results depend on the processing

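Camk1 and Camk2d were called higher in D2 in all 21 alternatives, with log2 fold changes of 0.49 to 0.68 and 0.27 to 0.36. Camk2g was called in 15 of 21, and Camk4 and Camkk1 were called in none. The deviations of same-numbered mice correlated at 0.37, -0.42, 0.37, 0.034 and -0.29 over 15388 genes. B6 replicates 1 and 3 were most like the D2 mouse of their own number, and the others were not. These correlations do not settle whether the mice were paired, since the cortex markers also differed between them. With the replicate block, 2 members were higher and 0 lower (Camk2g: edgeR adjusted p = 0.055), beside 2244 higher and 2487 lower of all 29883 genes. Over the pairs, the log2 ratio of Camk2a to Camk2b differed by 0.046 (exact sign-flip test, p = 0.625). An adjusted p under 0.01 left 2 members, Camk1 and Camk2d, and the share of all genes at that threshold is not given here. With the cortex marker level as a covariate, 4 members were higher and 3 lower, and Camk1d turned to -0.0013. That fit called 3899 of all 29883 genes higher and 3878 lower. Leaving out 1 mouse gave 2 to 3 members higher and 0 to 1 lower. Of all 29883 genes, these fits called 2115 to 2703 higher and 2493 to 2973 lower. The member lower was Camkk2, without B6 replicate 1. Under these omissions the log2 ratio of Camk2a to Camk2n1 ranged from -0.050 to 0.045, turning to -0.038 without B6 replicate 2, -0.021 without B6 replicate 4, -0.042 without D2 replicate 2 and -0.050 without D2 replicate 4. Camk1d ranged from -0.031 to 0.031, turning without B6 replicate 1 (-0.015) and D2 replicate 3 (-0.031), and Camk1g from -0.0015 to 0.21, turning without B6 replicate 3. Without B6 replicates 3 and 5, Camk2a turned to 0.086, Camk1g to -0.13, and the log2 ratio of Camk2a to Camk2b reached 0.15 (exact permutation test, p = 0.0179). That subset was chosen after seeing the data and lacks the B6 mice with the highest ratios, so the p follows in part from the choice. The causes were not tested. The lowest count of a member in a single library was 2637, and the part of depth was not tested.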
